A study of Mus musculus with 2 samples.

Results

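The sites described here are places of open chromatin that were called in untreated RAW264 cells and had no counterpart after treatment with RANKL, the cytokine that starts osteoclast formation. They were chosen by position and score: a peak of the list without RANKL, on chromosomes 1 to 19, with an authors' score of at least 100, and with no peak of the list with RANKL on it or within 1 kb of either edge. There were 1171 such sites among 13492 peaks without RANKL, and 29939 peaks in both lists together. They are called untreated-only sites below. The 5627 other peaks of the same list, chromosomes and score range, which had a RANKL peak on them or within 1 kb, are called matched sites.

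RAW264 is a mouse macrophage-like line from a cell bank, used at low passage. A DNase-seq library came from cells kept for 24 hours with 234 ng/ml of a GST-RANKL fusion protein, and the other from cells without RANKL. Nothing below has a replicate error, as each condition had 1 library, no test between the conditions could be made, and all values describe these 2 libraries. Read depth is unknown for both.

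Open chromatin is where DNase I can reach the DNA, mostly at promoters, enhancers and insulators, and each cell type has its own set of such sites. RANKL binds the receptor RANK on macrophage precursors and, through NF-kappaB, AP-1 and NFATc1, turns on the genes of bone-resorbing cells, while parts of the macrophage programme are turned down. A site that loses its factors can close, so a peak present before RANKL and missing after it is a place to look for that change. A peak that falls under the calling threshold of 1 list is missing in the same way, and the lists alone cannot separate the 2 cases.

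No mm9 gene table or genome was used here, so each site is given by its mm9 position (1-based) and not by gene, exon, intron or sequence.

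Untreated-only sites were concentrated at the low end of the scores allowed. Their median score was 121 (quartiles 109 and 141), and the highest was 256. Matched sites had a median of 163 (quartiles 129 and 212). Both the score limit and the missing RANKL peak were part of how the sites were chosen, so the following shares are a description only. With scores from 100 to 120, 568 of 1559 peaks (36.4%, 95% Wilson interval 34.1 to 38.9%) had no RANKL peak within 1 kb. From 120 to 150 it was 387 of 1749 (22.1%, interval 20.2 to 24.1%), from 150 to 200 it was 183 of 1801 (10.2%, interval 8.85 to 11.6%), and from 200 to 300 it was 33 of 1269 (2.60%, interval 1.86 to 3.63%). At 300 and over there were 0 of 420, which allows a share of up to 0.714%. The share was lower in each successive score class, and no peak of the highest class lacked a RANKL peak. All intervals here take in counting error alone, as if each peak were a separate draw, although close peaks share their surroundings. Over the whole score range, 38.8% of the peaks without RANKL on these chromosomes had no RANKL peak within 1 kb, and 17.2% of those scoring at least 100 did.

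**Figure D1:**
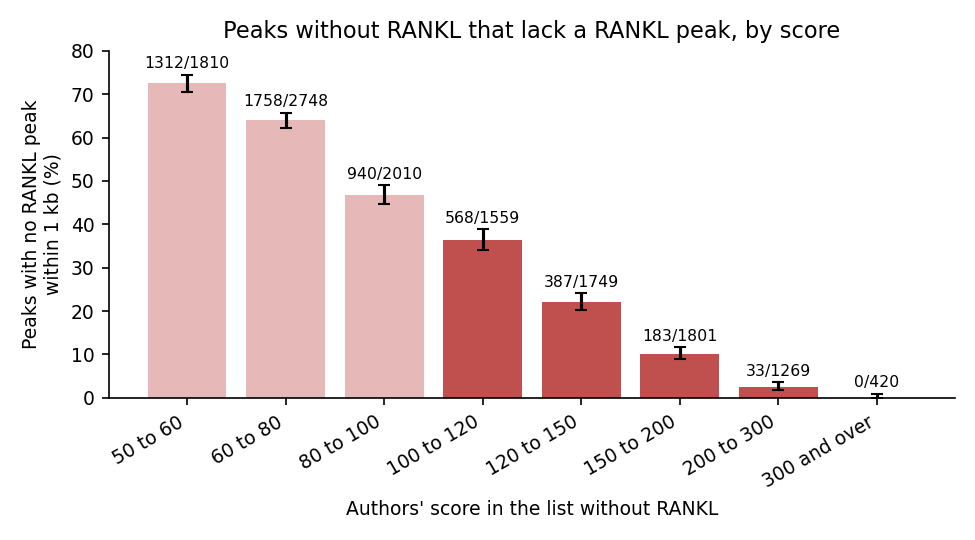
Share of peaks without RANKL on chromosomes 1 to 19 that had no RANKL peak within 1 kb (vertical axis, percent), by the authors' score (horizontal axis). Dark bars are the score classes of the untreated-only sites and pale bars the classes below the limit of 100; whiskers are 95% Wilson intervals and fractions are peaks over all peaks of the class. The share was 36.4% from 100 to 120, 2.60% from 200 to 300 and 0 of 420 at 300 and over.

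The limits cut through a continuous run of peaks. The 5 sites just inside the score limit scored 100.02 (chr8:125884271-125885866), 100.05 (chr5:136219293-136220956), 100.07 (chr9:117981877-117983462), 100.08 (chr11:104091746-104093356) and 100.1 (chr11:4086241-4087632). The 5 peaks just outside it, which met every other condition, scored 99.95, 99.88, 99.88, 99.75 and 99.73. In all, 4010 further autosomal peaks met every condition but the score. The distance limit mattered less. Of the 5627 matched sites, 5618 had a RANKL peak on them and 9 had one beside them within 1 kb. The closest 3 inside the limit were 1.03, 1.13 and 1.24 kb from a RANKL peak, and the nearest 3 outside it 0.851, 0.747 and 0.743 kb.

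The highest-scoring untreated-only site, at chr7:117307390-117310260 (score 256, 2871 bp wide), had 1 other peak of its own list and 1 RANKL peak within 50 kb. Its nearest neighbour of its own list, 40.8 kb away, did have a RANKL counterpart, so the missing peak was flanked by a site called in both lists. The next, at chr2:181315086-181317179 (score 252), and the third, at chr5:22055116-22057103 (score 237), had 0 RANKL peaks within 50 kb. The chromosome 5 site stood nearly alone, with its nearest RANKL peak 75.9 kb away and its nearest neighbour in its own list 762 kb away. At chr4:116861735-116863977 (score 236) the setting was crowded, with 6 other peaks without RANKL and 5 RANKL peaks within 50 kb, the nearest RANKL peak 6.46 kb away.

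Of the 10 highest-scoring sites, 5 had a neighbour in their own list that also lacked a RANKL peak and 5 had one that was matched. The site at chr17:35088758-35090541 (score 234) had another untreated-only site 5.65 kb away, at chr17:35096195-35097332 (score 167). The site at chr1:39591663-39593258 (score 227) had a neighbour 3.69 kb away that lacked a RANKL peak too, and 0 RANKL peaks within 50 kb. Further settings differed again. At chr7:52240772-52243457 (score 229) there were 4 other peaks without RANKL and 4 RANKL peaks within 50 kb, the nearest of them 9.12 kb away with a score of 273 in its own list. At chr17:66449879-66451977 (score 236) the nearest RANKL peak, 9.05 kb away, had a score of 51.2, close to the lowest score of that list, 50. The remaining 2, at chr11:113508920-113511669 (score 230) and chr6:125522115-125523846 (score 229), were 33.8 and 31.3 kb from a RANKL peak.

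In median width the untreated-only sites were close to matched sites of the same score class. Their median width was 1836 bp (quartiles 1631 and 2227 bp), against 1987 bp (quartiles 1725 and 2392 bp) for all matched sites, but width goes with score. From 100 to 120 the medians were 1764 bp for untreated-only sites (95% binomial order-statistic interval 1724 to 1799 bp) and 1802 bp for matched sites (interval 1773 to 1844 bp). From 120 to 150 they were 1882 bp (interval 1822 to 1930 bp) and 1896.5 bp (interval 1868 to 1929 bp), and from 150 to 200 they were 1985 bp (interval 1919 to 2023 bp) and 1976 bp (interval 1958 to 2003 bp). At 200 and over, where 33 untreated-only sites remained, they were 2112 bp (interval 1963 to 2370 bp) and 2140.5 bp (interval 2109 to 2161 bp). The intervals of the medians overlapped in all 4 classes, which does not show the widths to be equal, and no test was run.

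**Figure D2:**
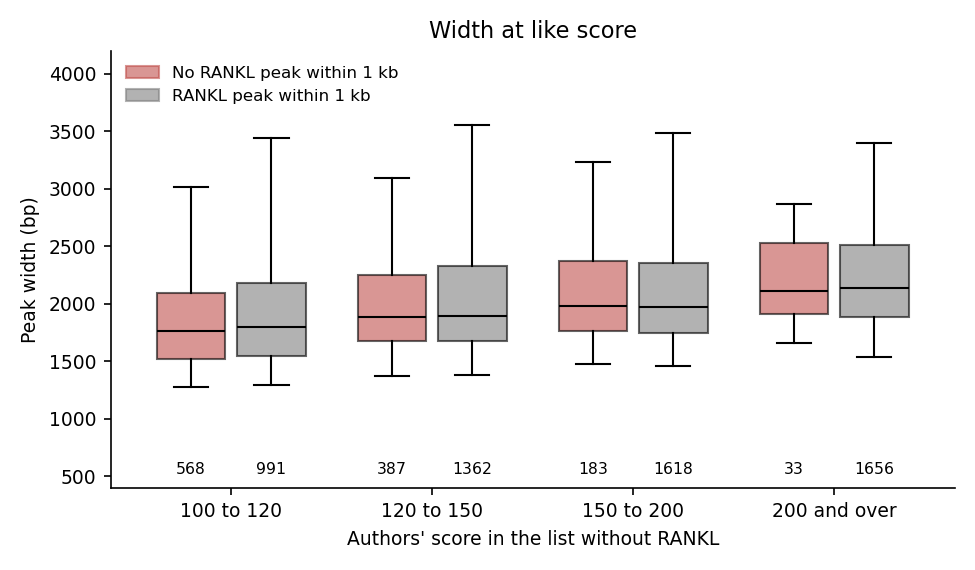
Peak width in bp (vertical axis) by score class (horizontal axis) for untreated-only sites (red, left of each pair, no RANKL peak within 1 kb) and matched sites (grey, right). Boxes are quartiles with the median, whiskers the 5th and 95th percentiles and the numbers below count peaks; the medians of a pair lie close together, as at 1764 and 1802 bp from 100 to 120.

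The widest untreated-only site, at chr4:134313943-134319210, was 5268 bp wide with a score of 104, and no other peak of its list lay within 50 kb. Those at chr11:102289529-102294780 (5252 bp, score 116) and chr15:78074356-78079457 (5102 bp, score 109) followed. These widest sites had low scores, but so did the narrowest, and over the score classes above the median width rose with score. The narrowest were 1012 bp wide at chr15:7063519-7064530 (score 109) and at chr9:77556478-77557489 (score 105), and 1022 bp at chr2:167624832-167625853 (score 115). Together the untreated-only sites covered 2.33 Mb of the 25.4 Mb covered by the list without RANKL. The median width over a whole list was 233 bp with RANKL, against 1738 bp without, a difference seen over the lists as a whole. Whether that difference plays a part in the missing RANKL peaks was not tested.

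Most untreated-only sites, 906 of 1171 (77.4%, interval 74.9 to 79.7%), had no RANKL peak within 10 kb. No like distance, past the own counterpart, was computed for matched sites. Their nearest peak of the same list was at a median of 22.5 kb, so the gaps below are not read as particular to untreated-only sites. The median gap was 24.95 kb (interval 22.8 to 26.9 kb, quartiles 10.7 and 53.2 kb). Only 12 sites had a RANKL peak between 1 and 2 kb away and 53 between 2 and 5 kb, so that 1106 of 1171 (94.4%, interval 93.0 to 95.6%) had none within 5 kb. None was found within 50 kb for 311 sites (26.6%, interval 24.1 to 29.2%) and none within 100 kb for 121 (10.3%, interval 8.72 to 12.2%). A peak of the same list was often closer: 898 sites (76.7%, interval 74.2 to 79.0%) had a peak of their own list nearer than any RANKL peak. RANKL peaks were narrower (median 233 against 1738 bp), so the edge of a matched neighbour can lie nearer than the RANKL peak on it. How far this shaped the share was not tested. The rule also barred RANKL peaks within 1 kb but not peaks of the same list. This share is therefore a description only.

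The nearest RANKL peak was usually the counterpart of another site rather than a site called only with RANKL. It had no peak without RANKL within 1 kb in 376 of 1171 cases (32.1%, interval 29.5 to 34.8%), close to the 33.0% (interval 32.2 to 33.7%) of all RANKL peaks on these chromosomes. A RANKL peak of that kind lay within 10 kb of 93 untreated-only sites (7.94%, interval 6.53 to 9.63%) and of 428 matched sites (7.61%, interval 6.94 to 8.33%). These shares were close and their intervals overlapped, and a surplus of RANKL-only peaks beside the untreated-only sites was not tested.

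The largest gaps lay in stretches with few RANKL peaks. On chromosome 18, the sites at chr18:14840021-14842224 (score 137) and chr18:14940791-14942917 (score 121) were 1707 and 1808 kb from the same RANKL peak, and 98.6 kb from each other. The site at chr10:64677164-64679360 (score 156) was 1165 kb from a RANKL peak and also 1164 kb from its nearest neighbour in its own list. At chr12:11271386-11273960 (score 132) the gap was 873 kb, while another peak without RANKL that also lacked a RANKL peak was 57.1 kb away. At chr19:25746053-25747792 (score 157) the gap was 558 kb. Thus some far sites were alone in both lists and others had company in the untreated list only. In all, 64 untreated-only sites (5.47%, interval 4.30 to 6.92%) had no peak of either list within 100 kb.

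The smallest gaps were 1.03 kb at chr13:93380138-93381850 (score 124), 1.13 kb at chr17:6950425-6952246 (score 124), 1.24 kb at chr4:6283887-6285298 (score 112), 1.27 kb at chr5:135089369-135091963 (score 126) and 1.37 kb at chr8:3647625-3649506 (score 105). The RANKL peaks beside them had low scores in their own list, from 51.0 to 67.5, and were 194 to 295 bp wide.

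**Figure D3:**
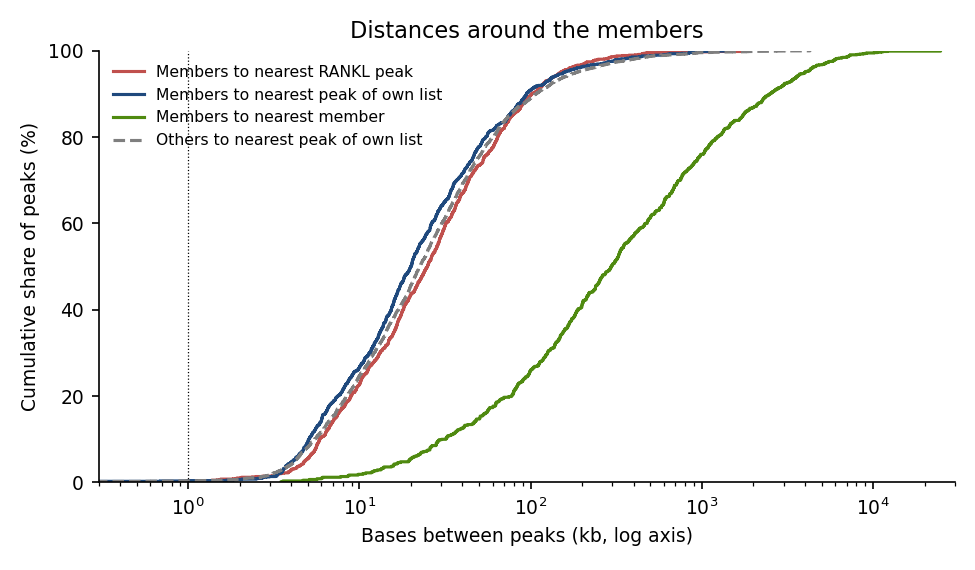
Cumulative share of peaks (vertical axis, percent) by bases between peaks (horizontal axis, kb, log scale). Lines give untreated-only sites (members) to the nearest RANKL peak, to the nearest peak of their own list and to the nearest other member, and matched sites (others, dashed) to the nearest peak of their own list; the dotted line is the 1 kb limit. The medians are 24.95 kb to a RANKL peak, 20.0 kb to a peak of their own list and 296 kb to another member.

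Untreated-only sites had about as many peaks of their own list within 50 kb as matched sites did, at a slightly shorter distance to the nearest. The intervals of that distance did not overlap, and it was not compared at like score. The nearest peak of the same list was at a median of 20.0 kb (interval 18.2 to 21.1 kb), against 22.5 kb (interval 21.6 to 23.3 kb) for matched sites. Within 50 kb they had a mean of 1.81 ± 1.51 other peaks of their list (SD over 1171 sites), against 1.75 ± 1.56 for matched sites (SD over 5627 sites), and 260 of them (22.2%, interval 19.9 to 24.7%) had 0, against 1380 matched sites (24.5%, interval 23.4 to 25.7%). The numbers of RANKL peaks within 50 kb differ in part by construction, since the own counterpart of a matched site is counted. The median was 1 for untreated-only sites (mean 1.83) and 3 for matched sites (mean 3.34). The numbers with counterparts left out were not computed.

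Fewer than 50% of the untreated-only sites that had company were the strongest of their surroundings. Among the 911 with another peak of their list within 50 kb, 399 (43.8%, interval 40.6 to 47.0%) had no higher-scoring one there. In like score classes the shares for untreated-only and then matched sites were 33.7% and 34.7% from 100 to 120, 47.0% and 46.2% from 120 to 150, and 65.5% and 61.6% from 150 to 200, with overlapping intervals. From 200 to 300 the intervals were apart: 18 of 28 untreated-only sites (64.3%, interval 45.8 to 79.3%) and 767 of 928 matched sites (82.7%, interval 80.1 to 84.95%) were the strongest. The other 10 untreated-only sites of that class had a higher-scoring neighbour within 50 kb. The upper limit of 300 was set after the scores were seen, and no test of the difference was run. Scores were not matched within this class, as the highest untreated-only site scored 256 while matched sites up to 300 were counted. Among matched sites the share rose with score, from 34.7% in the lowest class to 82.7% in this class. Whether the difference would remain at like score within the class was not tested.

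The rule looked at each site alone, so the state of its neighbour is a separate reading. The nearest peak of the same list, at any score, had no RANKL peak within 1 kb for 492 of 1171 untreated-only sites (42.0%, interval 39.2 to 44.9%), against 2117 of 5627 matched sites (37.6%, interval 36.4 to 38.9%). Among all peaks without RANKL the share was 38.8%. In like score classes the shares, in the same order, were 43.1% and 40.2% from 100 to 120, 41.1% and 40.7% from 120 to 150, 41.5% and 34.5% from 150 to 200, and 36.4% and 36.5% at 200 and over. The intervals overlapped in all 4 classes. Such overlap does not show the shares to be equal, and no test at like score was run. With a neighbour up to 10 kb away the shares were 38.1% of 312 untreated-only sites (interval 32.9 to 43.6%) and 38.1% of 1390 matched sites (interval 35.6 to 40.7%). From 10 to 50 kb they were 41.4% of 599 (interval 37.5 to 45.4%) and 37.4% of 2857 (interval 35.6 to 39.2%). With a neighbour over 50 kb away they were 48.1% of 260 (interval 42.1 to 54.1%) and 37.6% of 1380 (interval 35.1 to 40.2%), the one distance class of the 3 in which the intervals did not overlap. In like score classes the intervals overlapped at this distance too, with 51.7% of 120 (interval 42.8 to 60.4%) and 37.4% of 235 (interval 31.5 to 43.8%) from 100 to 120, 42.9% of 91 and 41.6% of 329 from 120 to 150, and 49.0% of 49 and 36.03% of 816 at 150 and over.

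**Figure D4:**
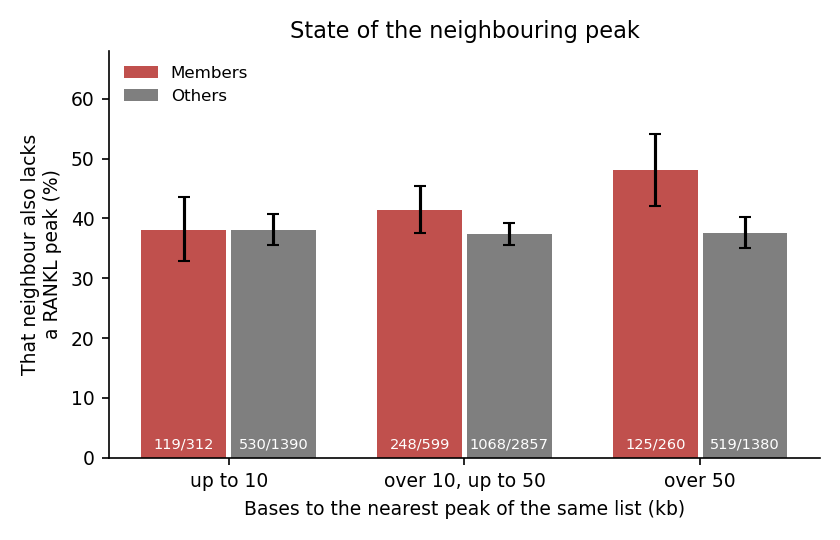
Share of sites whose nearest peak of the same list also had no RANKL peak within 1 kb (vertical axis, percent), by the distance to that neighbour (horizontal axis, kb). Members (red, left) are untreated-only sites and others (grey, right) matched sites; whiskers are 95% Wilson intervals and fractions give the counts. The shares are 38.1% and 38.1% up to 10 kb, and 48.1% and 37.6% over 50 kb.

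Taking peaks of the list without RANKL in order along each chromosome, 413 untreated-only sites (35.3%) stood singly, with no such peak next to them that lacked a RANKL peak within 1 kb. Another 327 (27.9%) were in runs of 2 neighbouring peaks that all lacked a RANKL peak, 194 (16.6%) in runs of 3, 123 (10.5%) in runs of 4 and 114 (9.74%) in runs of 5 or more. Such runs may include peaks scoring under 100. Of all peaks without RANKL on these chromosomes 38.8% lacked a RANKL peak within 1 kb, so runs would arise without any grouping. Run lengths were not compared with those around matched sites, and no grouping is read from them. The longest, of 11 peaks with 3 untreated-only sites, spanned 2190 kb on chromosome 10 (7959463 to 10149945) and had 5 RANKL peaks inside. A run of 10 peaks with 1 untreated-only site spanned 1613 kb on chromosome 2 (158665397 to 160278423), with 4 RANKL peaks inside. More compact was a run of 8 peaks in 208 kb of chromosome 15 (59575315 to 59782921), with 2 untreated-only sites and 2 RANKL peaks inside. Another, of 7 peaks in 243 kb of chromosome 2 (166918425 to 167161882), had 3 untreated-only sites and 0 RANKL peaks inside.

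Another untreated-only site lay within 10 kb of 22 of 1171 (1.88%, interval 1.24 to 2.83%). No like share was computed for matched sites, so this is not read as particular to untreated-only sites. The median gap to the nearest other untreated-only site was 296 kb (interval 256 to 329 kb), and 303 of 1171 (25.9%, interval 23.4 to 28.5%) had another within 100 kb. Among all 6798 peaks scoring at least 100, the nearest such peak was an untreated-only site for 237 of 1171 untreated-only sites (20.2%, interval 18.0 to 22.6%) and for 986 of 5627 matched sites (17.5%, interval 16.6 to 18.5%). Those intervals overlapped.

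There were 11 pairs within 10 kb. The closest, on chromosome 3 at 135179141 to 135180846 (score 117) and 135184325 to 135186043 (score 113), were 3.48 kb apart. On chromosome 4 the sites at 129373070 to 129374815 (score 107) and 129378387 to 129380278 (score 106) were 3.57 kb apart. On chromosome 3 the sites at 51212028 to 51213751 (score 179) and 51218439 to 51220718 (score 131) were 4.69 kb apart and 42.7 and 49.2 kb from a RANKL peak. On chromosome 9 the pair at 22271610 to 22273322 and 22279423 to 22280975, 6.10 kb apart, had the same score of 120.4.

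No window of 100 kb held more than 3 untreated-only sites. On a fixed grid, 999 windows held 1, 77 held 2 and 6 held 3. Of those 6, the 4 with the highest summed score are given. On chromosome 11, 113508920 to 113596010 held 3 of the 4 peaks without RANKL in their window, with scores of 230, 107 and 123, and 1 RANKL peak lay among them. On chromosome 9, 20806419 to 20878752 held sites scoring 141, 179 and 119, with 4 RANKL peaks and 6 peaks without RANKL in the window. On chromosome 11, 3146666 to 3192589 held sites scoring 124, 134 and 120, which were all 3 peaks without RANKL of their window, and 0 RANKL peaks. On chromosome 4, 129349217 to 129380278 held sites scoring 156, 107 and 106, with 3 RANKL peaks and 5 peaks without RANKL in the window.

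At the scale of 1 Mb, 1 place stood apart by its count, though not by its share. The window from 51 to 52 Mb of chromosome 3 held 9 untreated-only sites of 14 peaks scoring at least 100 (64.3%, interval 38.8 to 83.7%). The next fullest windows held 6 each, on chromosome 11 from 70 to 71 Mb (6 of 18) and from 115 to 116 Mb (6 of 21). Shares close to that of the chromosome 3 window were seen with fewer sites. They were 5 of 8 on chromosome 16 from 92 to 93 Mb (62.5%, interval 30.6 to 86.3%) and 5 of 9 on chromosome 11 from 4 to 5 Mb (55.6%, interval 26.7 to 81.1%). In all, 14 of 734 windows with an untreated-only site held 5 or more, 6 of them on chromosome 11. With the site at 50998839 to 51000260 (score 113) just before the window, the chromosome 3 stretch held 10 untreated-only sites of 14 peaks scoring at least 100 in 911 kb (50998839 to 51909912). Their scores went from 101 to 179, the highest at 51212028 to 51213751, and their gaps to a RANKL peak from 9.69 kb at 51455639 to 51457387 (score 119) to 74.8 kb at 51363187 to 51366254 (score 119). RANKL peaks were not missing from the stretch as a whole, which held 13 of them and 23 peaks without RANKL, 15 of these with no RANKL peak within 1 kb. This stretch was picked after its values were seen.

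By chromosome the share of untreated-only sites among peaks scoring at least 100 varied little, with chromosome 3 the lowest. It was 45 of 346 on chromosome 3 (13.0%, interval 9.86 to 17.0%) and 26 of 193 on chromosome 18 (13.5%, interval 9.36 to 19.01%). On the other 17 chromosomes it went from 15.6% on chromosome 12 (interval 11.6 to 20.7%) to 18.9% on chromosome 11 (interval 16.0 to 22.3%). The interval of chromosome 3 lay just under the 17.2% of all 19 chromosomes, and the intervals of all others contained it. Chromosome 11 had the most untreated-only sites, 115 of 607 peaks, and also the most per Mb (0.969), followed by chromosome 19 (0.810 per Mb). Chromosomes 11 and 19 had the most peaks scoring at least 100 per Mb too, 5.12 and 4.39.

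**Figure D5:**
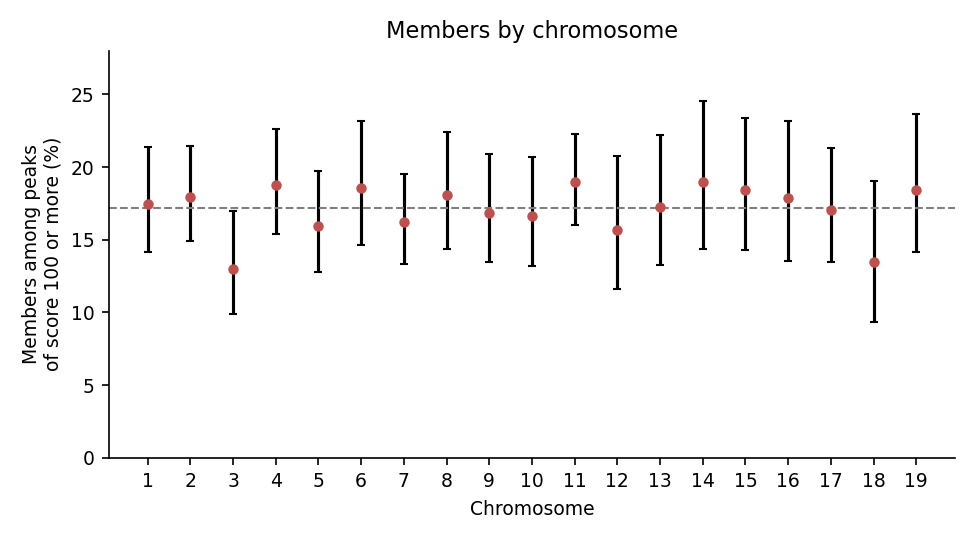
Share of untreated-only sites (members) among peaks without RANKL scoring at least 100 (vertical axis, percent) on each of chromosomes 1 to 19 (horizontal axis). Points are shares, bars 95% Wilson intervals and the dashed line the share over all 19 chromosomes, 17.2%; chromosome 3 is lowest at 13.0%.

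Chromosome 3 was uneven. Its stretch from 55 to 130 Mb, known from earlier work on these lists for its surplus of RANKL peaks, held 17 untreated-only sites of 236 peaks scoring at least 100 (7.20%, interval 4.55 to 11.2%). The rest of chromosome 3 held 28 of 110 (25.5%, interval 18.2 to 34.3%), and the other 18 chromosomes 1126 of 6452 (17.5%, interval 16.5 to 18.4%). With scores from 100 to 150 alone the shares were 13.7% (16 of 117, interval 8.60 to 21.1%), 34.3% (23 of 67, interval 24.1 to 46.3%) and 29.3% (916 of 3124, interval 27.8 to 30.9%). From 95 to 100 Mb, the fullest part of that stretch, there were 140 RANKL peaks and 84 without RANKL. By the rule more RANKL peaks can leave fewer sites, so the low share from 55 to 130 Mb is not independent of the surplus. Whether the surplus accounts for the low share was not tested. Of the 28 sites in the rest of chromosome 3, 11 lay between 50 and 55 Mb, where 21 peaks scored at least 100.

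Over windows of 10 Mb with at least 20 peaks scoring at least 100, 133 in number, the share of untreated-only sites had a median of 17.2% and went from 0 of 27 on chromosome 13 between 20 and 30 Mb, which allows a share of up to 11.1%, to 11 of 27 on chromosome 3 between 50 and 60 Mb (40.7%, interval 24.5 to 59.3%). The next highest windows were on chromosome 6 from 40 to 50 Mb (8 of 20, interval 21.9 to 61.3%), chromosome 2 from 10 to 20 Mb (8 of 20, with the same interval) and chromosome 7 from 80 to 90 Mb (13 of 36, 36.1%, interval 22.5 to 52.4%). These windows differed in their RANKL peaks. There were 32 RANKL peaks and 37 without RANKL in the chromosome 6 window, a ratio of 0.865, but 49 and 36 in the chromosome 2 window, a ratio of 1.36, against 1.21 over chromosomes 1 to 19. In the chromosome 13 window, which held no untreated-only site, there were 94 RANKL peaks and 58 without RANKL, a ratio of 1.62. Scores differed too. The median score of peaks scoring at least 100 was 140, 125, 136 and 135 in the windows on chromosomes 3, 6, 2 and 7. It was 165 in the chromosome 13 window and 152 over the chromosomes other than 3. With scores from 100 to 150 alone the counts were 9 of 16, 7 of 12, 6 of 11 and 11 of 21, and 0 of 10 on chromosome 13. How far scores account for the window shares was not tested. The interval lay above 17.2% in 10 of the 133 windows and below it in 6, and these windows were named for their values.

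Set beside the opposite case, at the same nominal limits, 390 of 5175 RANKL peaks scoring at least 100 on chromosomes 1 to 19 (7.54%) had no peak without RANKL within 1 kb. Scores of the 2 lists were not put on a common scale, so the 1171 untreated-only sites and these 390 are not a count of sites lost and gained.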

How the data were processed

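DNase-seq peak lists of 1 library with RANKL and 1 without were used as deposited. The submitters' processing notes name build mm9, MACS2 and Bowtie2 2.0.0. The deposited score per peak is the authors' own value. Its definition, like the calling threshold and any control library, is not given in the sources used here, and it was used only within a list. The lowest score was 50 in both lists. Read depth is unknown. Groups were taken from the treatment labels.

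Gaps are bases between peak edges, and a gap of at most 1000 bases counted as within 1 kb. Python 3.11.15, numpy 2.4.6, pandas 2.3.3, scipy 1.17.1 and matplotlib 3.10.9 were used, and gaps were checked against bedtools 2.31.1 on simulated peaks. Shares carry 95% Wilson intervals and medians exact binomial order-statistic intervals. A count of 0 is given with 3 counts over the total as its limit. No p-value was computed.

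The sites, classes and measures were chosen with earlier results of these data known. Sites were named by a set rule: the 10 highest scores, the 5 largest and smallest gaps, the 3 widest and narrowest, the fullest 100 kb windows and the sites beside each limit. Pairs, runs and larger windows were added after their values were seen. Genes, gene lists and motifs were not analysed, since the gene table at hand was of another build (GRCm38).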

Additional observations from a re-analysis of the deposited data

Results flagged for a closer look

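Chromosome X was not among the chromosomes used above. There, 9 of 47 peaks without RANKL scoring at least 100 (19.1%, Wilson interval 10.4 to 32.5%) met the rest of the rule, with scores from 107 to 191. This count is given because it exceeds the 3 that a count of 0 would allow. The share on chromosomes 1 to 19, 17.2%, lies within its interval. On chromosome Y it was 0 of 7 peaks.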

How the results depend on the processing

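Of 52 alternative values under 10 settings, 39 stayed within 1.5 times the reported count of 1171 sites or within the interval of the reported value. A score limit of 75 gave 2453 sites, a median width of 1706 bp and a median of 121 kb between them. It also gave 20.0% of the chromosome 3 peaks over that limit. The like share over all chromosomes used was not computed at this limit, so the 20.0% has no overall share beside it. With scores from 80 to 100, 46.8% of all peaks had no RANKL peak within 1 kb, against 36.4% from 100 to 120. A higher share at a lower limit is therefore not particular to chromosome 3. A limit of 150 gave 216 sites, 1990.5 bp and 3028 kb. Requiring no RANKL peak within 10 kb gave a median gap to a RANKL peak of 33.9 kb and 409 kb between sites, by construction. Counting only the upper 50% of the RANKL list gave 2171 sites, with a gap of 43.6 kb, 149 kb between sites and 57.8% of neighbours without a RANKL peak, since fewer RANKL peaks were left to find. Chosen after seeing the data, 2 more settings, distances between peak centres and leaving out chromosome 3 from 55 to 130 Mb, gave 1236 and 1154 sites and moved no value beyond these bounds. Alternatives for genes and motifs were not run. No paired analysis was possible because each condition had 1 library. Unknown depth limits every statement about a missing RANKL peak.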
